A study of Mus musculus with 18 samples.

Results

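The zinc finger genes described here are 127 genes of mouse microglia whose symbol starts with Zfp and a digit and whose RNA was above the floor of every library. The table of the study held 22428 genes and 358 of them carried such a symbol after Zfp36 was left out, so the 127 genes were 35.5% of the named family. The genes were chosen by a measured value, detection in all 18 libraries, and each gene's presence in every library is therefore a description of the choice and not a result. Of all genes in the table, 5520 (24.6%) met the same requirement, and these 5520 genes are the background for the counts below.

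Zinc finger proteins fold short stretches of protein around a zinc ion held by cysteines and histidines. In the classical C2H2 finger each zinc is held by a pair of cysteines and a pair of histidines, and arrays of such fingers read DNA. Many mammalian C2H2 proteins also carry a KRAB box, which recruits the corepressor Trim28 and through it the histone methyltransferase Setdb1, and these proteins are best known for silencing transposable elements. The CCCH finger of the Zfp36 family binds AU-rich elements in mRNA and leads to deadenylation and decay of inflammatory transcripts in macrophages and related cells.

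Microglia positive for CD11b, CD45 and P2ry12 were sorted from the medial prefrontal cortex at postnatal day 51 and sequenced in bulk. WT-Veh (n = 6) were wild type littermates given vehicle daily from day 30 to day 51. WT-THC (n = 4) were wild type mice given delta-9-tetrahydrocannabinol (THC), the main psychoactive compound of cannabis, subcutaneously at 8 mg/kg over the same days. 16p11dup-Veh (n = 4) and 16p11dup-THC (n = 4) were mice that model the human 16p11.2 duplication and that received vehicle or THC in the same way. All 4 groups were on the C57BL6/J background. Every library is taken as 1 replicate, and no source used here says that each came from a separate mouse, so p-values measure the spread between libraries, which may be technical. In bulk RNA, fewer cells of a type and less RNA per cell cannot be told apart.

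Libraries held 7045444 to 15459286 counts. Levels are given as CPM, read counts scaled to a common library total. The summed level of the 10 microglia markers was 19010 to 37568 CPM over the libraries, against at most 56.5 CPM for neuron, 320.5 CPM for astrocyte, 194 CPM for oligodendrocyte, 189.6 CPM for endothelial and 279 CPM for border macrophage, monocyte and lymphocyte markers. Between 228 and 318 Zfp genes were detected per library. WT-Veh replicate 6, 16p11dup-Veh replicate 13 and WT-THC replicate 11 stood apart with the most genes of any kind (12350, 11590 and 10966), and their log2 CPM over the 5520 genes correlated at r = 0.773 to 0.833 with each other although their groups differ, against at most 0.677 for any pair within a group. WT-THC replicate 9, WT-Veh replicate 2 and 16p11dup-Veh replicate 14 had the fewest (8778, 8814 and 8902). No 16p11dup-THC library belonged to either set, and the part of this in the comparisons with that group was not tested beyond leaving each set out. The duplicated segment of mouse chromosome 7, taken as Slx1b to Sept1 (126689468 to 127233130, GRCm38), held no Zfp gene in full. Of its 12 genes detected in every library, 7 had higher values in 16p11dup-Veh than in WT-Veh (background 50.7%, median log2 fold change 0.41). In 16p11dup-THC 8 of the 12 had higher values than in WT-THC (background 51.2%, median 0.29). None passed the false discovery rate of 0.10 in either comparison.

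The fingers that recur in the results are printed from the coding strand, so that the zinc-binding residues can be seen. Capitals mark the codons of the cysteines and histidines that hold the zinc. The sequences were read from GENCODE M21 transcripts on GRCm38 (minus strand except for Zfp955b), at chr12:80110189-80110248 for Zfp36l1, chr17:84186668-84186727 for Zfp36l2, chr17:32775555-32775617 for Zfp871, chr5:106637381-106637443 for Zfp644, chr17:33242317-33242379 for Zfp955a and chr17:33302336-33302398 on the plus strand for Zfp955b. The first pair is the CCCH finger of the genes with the highest level per length, and Zfp871 and Zfp644 give the first C2H2 finger of the most even gene and of the gene with the smallest p-value. The last pair shows why some counts cannot be assigned to 1 gene.
Zfp36l1: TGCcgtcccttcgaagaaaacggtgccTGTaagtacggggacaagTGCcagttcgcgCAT
Zfp36l2: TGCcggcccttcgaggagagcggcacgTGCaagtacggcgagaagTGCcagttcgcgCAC
Zfp871: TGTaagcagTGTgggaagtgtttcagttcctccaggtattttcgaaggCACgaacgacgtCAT
Zfp644: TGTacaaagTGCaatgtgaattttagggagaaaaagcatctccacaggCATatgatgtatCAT
Zfp955a: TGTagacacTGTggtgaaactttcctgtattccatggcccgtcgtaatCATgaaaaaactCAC
Zfp955b: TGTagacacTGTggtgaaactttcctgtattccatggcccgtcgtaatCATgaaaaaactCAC
Zfp36l1 and Zfp36l2 were identical at 49 of 60 bases of this finger (81.7%). Zfp955a and Zfp955b did not differ at any of the 63 bases shown, and 1606 of their 1635 coding bases were the same (98.2%).

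Proteins translated from the longest coding sequence of each gene held a median of 10 C2H2 fingers, from 0 to 36. Zfp142 had the most with 36, followed by Zfp619 with 33, Zfp236 with 30, Zfp646 with 27 and Zfp62 with 25. No C2H2 finger was matched in 6 genes, of which Zfp36l1 and Zfp36l2 each held 2 CCCH fingers. A KRAB box was matched in 60 of the 127 genes (47.2%), compared with 131 of 222 coding Zfp genes that were not detected everywhere (59.0%). The KRAB genes had a median of 12 fingers and the other 67 genes a median of 7, as the plot of fingers per gene shows. Chromosome 7 carried 20 of the genes (23.8% of its Zfp genes), chromosome 17 carried 16 (37.2%) and chromosome 13 carried 14 (38.9%). Of all Zfp genes 35.5% were detected in every library. On these 3 chromosomes many KRAB genes lie in tandem clusters.

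**Figure D1:**
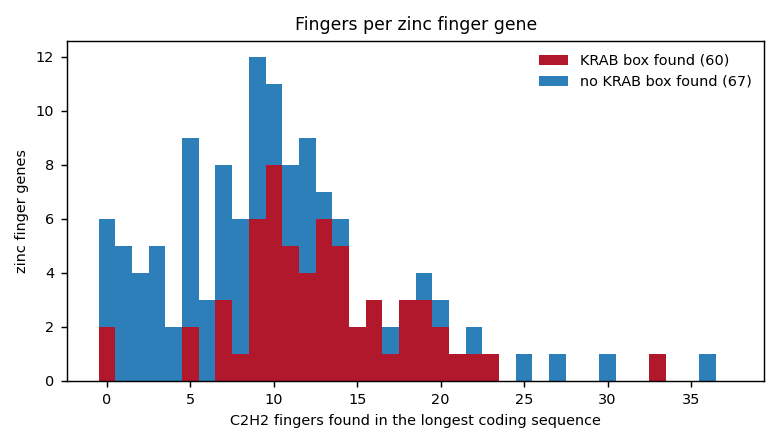
Number of C2H2 fingers (x axis) found in the longest coding sequence of the 127 zinc finger genes, with the number of genes on the y axis; red is genes with a KRAB box match and blue is genes without, stacked. The KRAB genes centre on a median of 12 fingers and the others on a median of 7, and the longest array is Zfp142 with 36.

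Many KRAB genes are tandem copies of each other, and a read can fit more than 1 copy. A 100-base stretch of coding sequence was shared with another gene in 18 of the 127 genes, all with a KRAB match. The deposited values came from a counter that splits such reads, and 11 of these 18 genes had a count that was not whole in at least 1 library, compared with 2 of the 109 others. Zfp97, Zfp955a, Zfp955b and Zfp738 had such counts in 15 of 18 libraries each, and their levels are uncertain. Every 100-base stretch of Zfp781 was shared with Gm3055, and 177 stretches were shared between Zfp874a and Zfp874b. The spans of 17 genes, introns included, overlapped the span of another coding gene, among them Zfp597 with Naa60 and Zfp174 and Zfp687 with Pi4kb. The counting did not use strand, so these counts are uncertain too wherever exons overlap, which was not tested.

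The 127 genes together made up 0.827% to 1.389% of a library's counts. The 3 highest held 17.8% of the summed CPM, the 5 highest held 26.6% and the 10 highest held 36.6%. The summed level was 10687 ± 2569 CPM in WT-Veh (SD, n = 6), 11323 ± 3392 CPM in WT-THC (SD, n = 4), 10277 ± 1570 CPM in 16p11dup-Veh (SD, n = 4) and 11980 ± 1209 CPM in 16p11dup-THC (SD, n = 4). These ranges overlapped between all groups. The 3 libraries with the most genes had the 3 lowest sums (7879 to 8906 CPM), while as a share of their own counts they lay in the middle (0.988% to 1.162%). The scaling factors recovered for those libraries were 1.249 to 1.305 and CPM are relative to the scaled total.

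Levels are compared between genes per kilobase of exon. Zfp36l1 stood at 201 CPM per kb and Zfp36l2 at 178 CPM per kb, both destabilisers of AU-rich mRNA. Zfp710 (69.0 CPM per kb), Zfp871 (65.6 CPM per kb), Zfp385a (63.6 CPM per kb), an RNA-binding partner of p53, Zfp207 (51.2 CPM per kb), a spindle assembly protein that binds Bub3, and Zfp292 (49.9 CPM per kb) came next. The libraries of Zfp36l1 and Zfp36l2 overlapped in every group, and so did those of Zfp710, Zfp871, Zfp207 and Zfp292. The median was 9.31 CPM per kb over all 127 genes, 7.07 CPM per kb over the KRAB genes and 11.16 CPM per kb over the others, and the lowest was Zfp410 at 1.35 CPM per kb, an activator known for its control of Chd4. KRAB genes held 31.2% of the summed CPM.

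**Figure D2:**
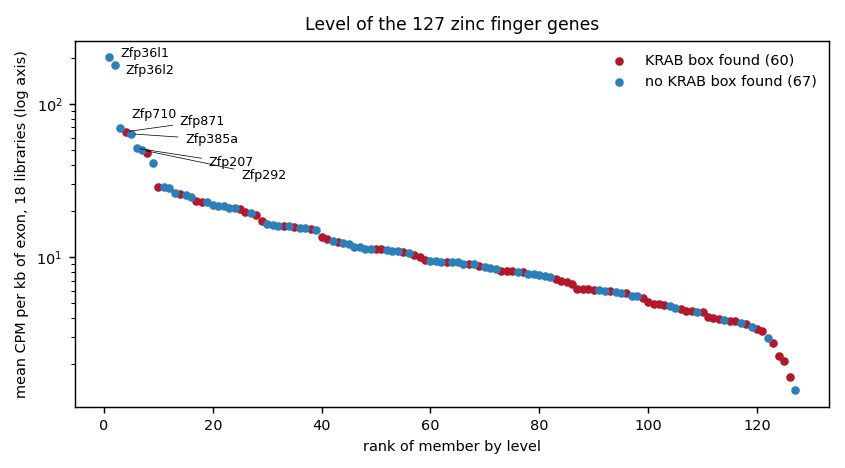
Mean CPM per kb of exon over 18 libraries (log axis) of the 127 zinc finger genes in order of level (x axis, rank); red is genes with a KRAB box match and blue is genes without. Zfp36l1 and Zfp36l2 stand at 201 and 178 CPM per kb, above Zfp710 at 69.0 CPM per kb, and the KRAB genes have a median of 7.07 CPM per kb.

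Zfp36l1 ranged from 445 to 924 CPM in WT-Veh with a median of 489 CPM. It stood at 293, 380, 615 and 2128 CPM in WT-THC, at 409, 492, 507 and 893 CPM in 16p11dup-Veh and at 374, 421, 429 and 456 CPM in 16p11dup-THC. The groups overlapped, and WT-THC replicate 9 was the highest library. Zfp36l2 was between 370 and 723 CPM in WT-Veh (median 493 CPM), and it stood at 540, 562, 861 and 1028 CPM in WT-THC, at 390, 603, 633 and 1276 CPM in 16p11dup-Veh and at 395, 468, 533 and 936 CPM in 16p11dup-THC. Again the groups overlapped, and 16p11dup-Veh replicate 14 was the highest. Zfp871 had the smallest spread of the 127 genes, with an SD of 0.48 on the log2 CPM scale and a range of 314 to 1076 CPM over the 18 libraries.

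The detected zinc finger genes were less abundant than other detected genes and varied more. Their median log2 CPM was 4.76 (range 1.34 to 9.44) compared with 5.44 over the 5520 genes, and their median SD of log2 CPM over the 18 libraries was 1.87 compared with 1.57. Within a band of level the spread was close to that of the background, with a median SD of 2.11 against 2.05 at a log2 CPM of 4 to 5, 1.66 against 1.57 at 5 to 6 and 0.65 against 0.77 above 7. Zfp36l2 (SD 0.51), Zfp292 (0.54), Zfp106 (0.55) and Zfp715 (0.58) followed Zfp871 among the most even on the log2 CPM scale. Zfp772 (3.20), Zfp622 (3.11), Zfp664 (3.11), Zfp809 (3.06) and Zfp790 (2.996) varied most, with the highest library 1670 to 2473 times the lowest in CPM. Zfp809 silences murine leukaemia virus in mouse embryonic cells and Zfp622 takes part in maturation of the large ribosomal subunit. Zfp772, Zfp622, Zfp809 and Zfp790 had 1 read in their lowest library, and Zfp664 had 2 reads.

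**Figure D3:**
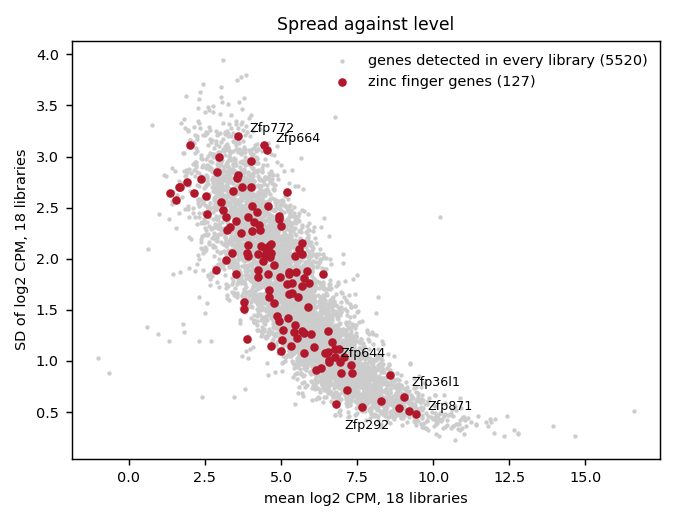
SD of log2 CPM over 18 libraries (y axis) against mean log2 CPM (x axis) for the 5520 genes detected in every library (grey) and the 127 zinc finger genes (red). Both clouds fall together from an SD near 3 at low level to about 0.5 at high level, with Zfp871 (0.48) at the even end and Zfp772 (3.20) at the variable end.

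Detection in every library was close to its limit for many genes. In 23 of the 127 genes the lowest library held 1 read, and 59 genes had at least 10 reads everywhere. Among those just inside were Zfp131, Zfp51, Zfp595, Zfp513 and Zfp458, each with a single read in 1 library. Just outside, 41 Zfp genes were at the floor in 1 library only, led by mean log2 CPM by Zfp609 (mean 90.4 CPM, at the floor in WT-Veh replicate 1), the pseudogene Zfp862-ps (60.7 CPM), Zfp87 (36.5 CPM), Zfp386 (28.8 CPM) and Zfp74 (37.3 CPM). At the far end, 28 Zfp genes were not detected in any library.

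No zinc finger gene passed the false discovery rate of 0.10 in any comparison by limma with voom weights, which was fitted over all 22428 genes with the percentage of mapped reads as covariate. The lowest adjusted p was 0.744 for WT-THC, 0.982 for 16p11dup-Veh and 0.795 for 16p11dup-THC, each against WT-Veh. It was 0.906 for 16p11dup-THC against WT-THC, 0.83 against 16p11dup-Veh and 0.973 for the interaction of THC and 16p11dup. None of the 5520 genes detected in every library passed either (0.0%), and of all 22428 genes 2 passed for WT-THC against WT-Veh (0.00892%), 1 for 16p11dup-THC against WT-Veh (0.00446%) and 1 for 16p11dup-THC against WT-THC (0.00446%). By edgeR's quasi-likelihood test 1 zinc finger gene passed in 1 comparison, and by DESeq2 27 results of 18 genes passed across the 6 comparisons. The share of the background that edgeR called was 0.0181% for WT-THC, 0.199% for 16p11dup-Veh and 0.181% for 16p11dup-THC, each against WT-Veh, 0.0362% for 16p11dup-THC against WT-THC, 0.145% against 16p11dup-Veh and 0.0906% for the interaction. DESeq2 called 1.9%, 0.942%, 3.57%, 3.08%, 2.19% and 1.9% in the same order.

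At unadjusted p under 0.05 by limma, 5 of the 127 genes differed between WT-THC and WT-Veh (3.94% against 4.38% of the background), 3 with higher values (background 1.9%) and 2 with lower values (background 2.48%). For 16p11dup-Veh against WT-Veh there were 7 genes (5.51% against 3.59%), 5 higher (1.61%) and 2 lower (1.97%). For 16p11dup-THC against WT-Veh there were 13 genes (10.2% against 7.08%), 7 higher (3.41%) and 6 lower (3.68%). The same group differed from WT-THC in 6 genes (4.72% against 6.88%), 4 higher (3.46%) and 2 lower (3.42%), and from 16p11dup-Veh in 11 genes (8.66% against 6.27%), 3 higher (2.99%) and 8 lower (3.28%). The interaction gave 6 genes (4.72% against 5.53%), 2 higher (2.63%) and 4 lower (2.9%). The comparisons share libraries and are not independent of each other.

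The median of the whole set is given beside that of the background. The median log2 fold change was 0.10 for WT-THC and 0.10 for 16p11dup-Veh against WT-Veh (0.03 and 0.02 over the 5520 genes), and 0.26 for 16p11dup-THC against WT-Veh (0.06). For 16p11dup-THC it was -0.11 against WT-THC (0.03) and 0.24 against 16p11dup-Veh (0.05), and for the interaction -0.08 (0.02). The value against WT-THC turned positive with DESeq2 (0.28, background 0.10), edgeR (0.31, background 0.11) and surrogate variables added (0.14, background 0.04). The interaction turned positive with DESeq2 (0.18, background 0.16) and edgeR (0.21, background 0.18), and WT-THC against WT-Veh turned negative with both (-0.11 and -0.10, background -0.15 and -0.15).

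For the KRAB genes alone, the median log2 fold change of 16p11dup-THC was 0.49 against WT-Veh and 0.48 against 16p11dup-Veh. The values above 0 were 39 of 60 (65.0%, background 53.0%) and 40 of 60 (66.7%, background 52.2%). The 67 other genes had medians of 0.05 and 0.02. Without WT-Veh replicate 1 the KRAB median against WT-Veh was 0.31, and with surrogate variables added that against 16p11dup-Veh was 0.28. Against WT-THC, 32 of 60 KRAB values were above 0 (53.3%, background 51.2%), and the median of the KRAB genes was 0.11. That value depended on the tool and on 1 library, with 0.46 by edgeR and 0.43 by DESeq2 (36 of 60 above 0 by each) and -0.12 without WT-THC replicate 7. The 10 microglia markers had median log2 fold changes of 0.31 against WT-Veh, 0.43 against 16p11dup-Veh and 0.18 against WT-THC. At unadjusted limma p under 0.05, 3 of the 10 markers were higher and none lower in each of the first 2 comparisons. The background was 7.08% and 6.27% in both directions together, and these comparisons share the 16p11dup-THC libraries. Against WT-THC, none of the markers was higher and 1, Aif1, was lower (background 6.88%). None of the 10 markers passed the false discovery rate of 0.10. Their summed level ran from 23618 to 37568 CPM in 16p11dup-THC, from 19010 to 36829 CPM in WT-Veh, from 21166 to 32184 CPM in 16p11dup-Veh and from 23363 to 31214 CPM in WT-THC. The part of this in the KRAB values was not tested.

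Taken as a share of the summed CPM of the 127 genes, the KRAB genes held 33.7%, 35.3%, 35.6% and 41.0% in the 16p11dup-THC libraries and 23.4%, 28.2%, 30.8% and 32.8% in 16p11dup-Veh. These groups did not overlap. In WT-THC the share was 26.5%, 31.7%, 33.4% and 33.6%, just under the lowest 16p11dup-THC library, and in WT-Veh it ran up to 37.2% and overlapped with every group. This difference was not tested. The median log2 fold change of the KRAB genes against 16p11dup-Veh was 0.19 without 16p11dup-Veh replicate 14 and 0.15 without the 3 libraries with the fewest genes detected, a set that holds that library.

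**Figure D4:**
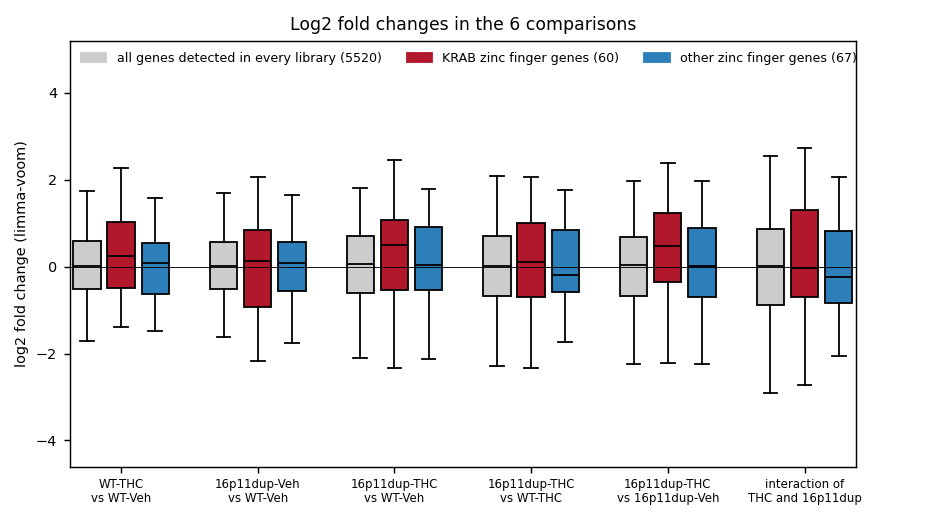
Log2 fold changes (y axis) from limma with voom weights in the 6 comparisons (x axis) for all 5520 genes detected in every library (grey), the 60 KRAB genes (red) and the 67 other zinc finger genes (blue). Boxes span the quartiles with the median as a line and whiskers run from the 5th to the 95th percentile; the KRAB medians reach 0.49 and 0.48 in the comparisons of 16p11dup-THC with WT-Veh and with 16p11dup-Veh.

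Zfp644, a partner of the G9a and GLP complex that methylates histone H3 on lysine 9, had the smallest limma p-value of the 127 genes in any comparison. It ranged from 36.5 to 90.6 CPM in WT-Veh with a median of 59.8 CPM. The other groups were at 30.5, 51, 90.2 and 121 CPM (WT-THC), 74.2, 94.8, 186 and 207 CPM (16p11dup-Veh) and 178, 194, 229 and 337 CPM (16p11dup-THC). All 4 16p11dup-THC libraries were above every wild type library, and 16p11dup-Veh lay between and overlapped both. The log2 fold change of 16p11dup-THC was 2.03 ± 0.40 (SE) against WT-Veh (exact permutation p = 0.00952, limma p = 0.00015, adjusted p = 0.795) and 1.98 ± 0.44 against WT-THC (exact permutation p = 0.0286, limma p = 0.000444, adjusted p = 0.906). The exact tests are two-sided on mean log2 CPM here and below, and 0.00952 and 0.0286 are the smallest p-values that 4 against 6 and 4 against 4 libraries allow. Groups that do not overlap always give these values, so the exact test adds nothing to the lack of overlap. Leaving out any 1 library kept the value between 1.80 and 2.18 against WT-Veh and between 1.67 and 2.39 against WT-THC. DESeq2 gave adjusted p = 0.00104 and 0.019 for these comparisons. The value was smaller in other comparisons, with a log2 fold change of 1.00 ± 0.39 for 16p11dup-Veh against WT-Veh (exact permutation p = 0.0286, limma p = 0.0211, adjusted p = 0.982) and 1.04 ± 0.44 for 16p11dup-THC against 16p11dup-Veh (exact permutation p = 0.143, limma p = 0.034, adjusted p = 0.83).

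**Figure D5:**
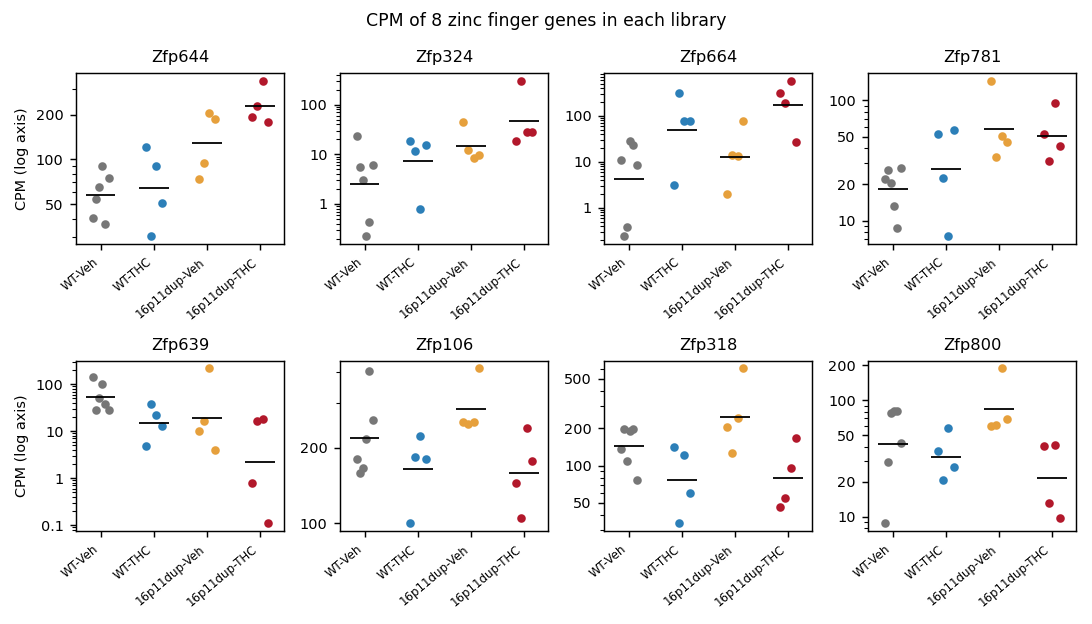
CPM (log axis) of 8 zinc finger genes in each of 18 libraries of the 4 groups (x axis); each point is a library and the line is the mean on the log scale. Zfp644 is at 178 CPM or more in the 4 16p11dup-THC libraries and at 121 CPM or less in all wild type libraries, while Zfp324, Zfp664 and Zfp639 spread over 2 or more powers of 10 within a group.

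Groups that did not overlap were few. For WT-THC against WT-Veh 1 gene was higher (background 0.399%) and 1 lower (0.38%) without overlap, together against 0.779% of the background. For 16p11dup-Veh against WT-Veh 2 were higher (0.417%) and none lower (0.362%), against 0.779%. For 16p11dup-THC against WT-Veh 2 were higher (0.562%) and 1 lower (0.417%), against 0.978%. Against WT-THC, 4 genes were higher in 16p11dup-THC (1.39%) and none lower (1.58%), against 2.97%. Against 16p11dup-Veh, 2 were higher (1.27%) and 3 lower (1.5%), against 2.77%.

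Among the genes that stood higher in 16p11dup-THC, Zfp324, a KRAB gene, was at 18.9, 28.2, 28.2 and 298 CPM in that group and between 0.226 and 22.8 CPM in WT-Veh (median 4.29 CPM). WT-THC stood at 0.797, 11.7, 15.4 and 18.9 CPM and 16p11dup-Veh at 8.26, 9.68, 12.3 and 45.2 CPM. The mean of 16p11dup-THC rests on replicate 18, and WT-THC and 16p11dup-THC met at 18.9 CPM without crossing. The log2 fold change was 4.49 ± 1.08 against WT-Veh (exact permutation p = 0.019, limma p = 0.000883, adjusted p = 0.795) and 3.17 ± 1.19 against WT-THC (exact permutation p = 0.0286, limma p = 0.018, adjusted p = 0.965). Without replicate 18 these were 3.82 and 2.46.

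Zfp664 was at 26.4, 194, 305 and 568 CPM in 16p11dup-THC, at 3.17, 75.1, 78.0 and 306 CPM in WT-THC and at 1.97, 13.6, 13.7 and 77.0 CPM in 16p11dup-Veh. In WT-Veh it ranged from 0.246 to 28.7 CPM with a median of 9.72 CPM. Both THC groups stood above their vehicle group by mean and overlapped with it. The log2 fold change was 4.82 ± 1.49 for 16p11dup-THC (exact permutation p = 0.019, limma p = 0.00553, adjusted p = 0.803) and 3.49 ± 1.43 for WT-THC (exact permutation p = 0.114, limma p = 0.0277, adjusted p = 0.744), each against WT-Veh. For 16p11dup-THC this was the 1 call of edgeR's quasi-likelihood test (log2 fold change 4.46, adjusted p = 0.0133). DESeq2 gave adjusted p = 0.00181 and, for WT-THC, 0.0841.

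Zfp781 was at 31.6, 41.6, 52.1 and 94.7 CPM in 16p11dup-THC and at 33.9, 45.2, 50.6 and 145 CPM in 16p11dup-Veh. WT-Veh ranged from 8.62 to 27.5 CPM with a median of 21.5 CPM, and WT-THC stood at 7.44, 22.6, 52.9 and 57.2 CPM. Both 16p11dup groups were above all WT-Veh libraries and overlapped with WT-THC. The log2 fold changes against WT-Veh were 1.58 ± 0.53 (exact permutation p = 0.00952, limma p = 0.00881, adjusted p = 0.803) and 1.35 ± 0.51 (exact permutation p = 0.00952, limma p = 0.018, adjusted p = 0.982). All of its coding sequence is shared with Gm3055, so reads of either gene fit it, while its own counts were whole in all 18 libraries.

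Lower in 16p11dup-THC was Zfp639, a C2H2 gene without a KRAB match. It stood at 0.109, 0.802, 16.1 and 18.3 CPM in that group, and WT-Veh ranged from 27.8 to 142 CPM with a median of 43.9 CPM. WT-THC was at 4.87, 13, 21.8 and 37.8 CPM and 16p11dup-Veh at 3.89, 10.3, 16.7 and 219 CPM. No 16p11dup-THC library reached the lowest WT-Veh library, and every other group overlapped it. The log2 fold change against WT-Veh was -4.12 ± 1.34 (exact permutation p = 0.00952, limma p = 0.00766, adjusted p = 0.803), and -2.79 without replicate 21, the library with a single read.

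THC was compared with vehicle within 16p11dup mice, and Zfp106 came first there. It is a nuclear RNA-binding protein whose loss causes neuromuscular degeneration in mice. It was at 105, 144, 177 and 239 CPM in 16p11dup-THC and at 249, 254, 254 and 414 CPM in 16p11dup-Veh, and WT-THC was at 99.9, 180, 184 and 223 CPM with WT-Veh from 159 to 405 CPM (median 198 CPM). The 2 16p11dup groups did not overlap, while both overlapped with WT-Veh. The log2 fold change was -1.07 ± 0.28 (exact permutation p = 0.0286, limma p = 0.00177, adjusted p = 0.83), and it stayed between -1.23 and -0.89 without any 1 library. DESeq2 gave adjusted p = 0.0913, as 1 of its 5 calls among the 127 genes in this comparison.

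Zfp318, which in B cells is needed for IgD expression, was at 46.1, 54.9, 95.2 and 166 CPM in 16p11dup-THC and at 125, 202, 241 and 606 CPM in 16p11dup-Veh. WT-THC was at 34.3, 59.8, 122 and 141 CPM and WT-Veh from 77.0 to 197 CPM (median 163 CPM). The 2 THC groups lay lowest by mean and overlapped with their vehicle groups. For 16p11dup-THC against 16p11dup-Veh the log2 fold change was -1.75 ± 0.59 (exact permutation p = 0.0571, limma p = 0.00994, adjusted p = 0.83), and -1.21 without 16p11dup-Veh replicate 16.

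Zfp800 was at 9.78, 13.3, 40.6 and 41.7 CPM in 16p11dup-THC and at 60.7, 61.3, 69.4 and 188 CPM in 16p11dup-Veh without overlap (log2 fold change -1.84 ± 0.70, exact permutation p = 0.0286, limma p = 0.0192, adjusted p = 0.83). Both overlapped with WT-Veh, which ran from 8.80 to 81.7 CPM with a median of 60.3 CPM. The KRAB gene Zfp874b had a log2 fold change of -4.34 ± 1.57 in the same comparison (exact permutation p = 0.0571, limma p = 0.0148, adjusted p = 0.83). It stood at 0.184, 2.57, 2.81 and 6.96 CPM in 16p11dup-THC and at 6.12, 18.6, 18.9 and 252 CPM in 16p11dup-Veh, so the mean of the latter rests on replicate 14. DESeq2 called it at adjusted p = 0.000212, and part of its reads cannot be told from those of Zfp874a.

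Zfp772, the most variable of the 127 genes, was at 34.9 to 169 CPM in 16p11dup-THC and at 0.347 to 19.6 CPM in 16p11dup-Veh. These did not overlap, and the log2 fold change was 4.02 ± 1.91 (limma adjusted p = 0.83). Zfp280d was higher without overlap as well (84.4 ± 22.4 CPM against 46.1 ± 9.54 CPM, SD, n = 4 each) and Zfp422 lower (14.5 ± 10.9 CPM against 55.4 ± 22.6 CPM, SD, n = 4 each) (limma adjusted p = 0.83 for both). Against WT-THC, Zfp445 was at 207, 227, 295 and 318 CPM in 16p11dup-THC and at 102, 127, 150 and 156 CPM in WT-THC (log2 fold change 0.87 ± 0.58, limma adjusted p = 0.965). Zfp445 is a KRAB protein that maintains methylation at imprinted genes. It overlapped with WT-Veh, where it reached 518 CPM in replicate 5. Zfp414 (108 ± 112 CPM against 16.0 ± 10.1 CPM, SD, n = 4 each) also did not overlap with WT-THC (limma adjusted p = 0.965). Zfp597, a KRAB gene, stood at 0.652, 5.88, 6.72 and 12.6 CPM in 16p11dup-THC against 11.8, 27.4, 71.6 and 107 CPM in WT-THC (log2 fold change -2.71 ± 0.87, exact permutation p = 0.0571, limma p = 0.00735, adjusted p = 0.965). These groups overlapped by 1 library, and the gene overlaps Naa60. Zfp687 had a higher mean (148.7 ± 98.5 CPM against 12 ± 10.6 CPM, SD, n = 4 each), with a log2 fold change of 4.11 ± 1.86 (limma adjusted p = 0.965) that was 1.995 without WT-THC replicate 9. Zfp937 had 0.876 ± 1.31 CPM against 6.58 ± 4.77 CPM (SD, n = 4 each), and its log2 fold change was -3.38 ± 1.54 (limma adjusted p = 0.965).

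In wild type mice, THC was compared with vehicle. Zfp518a was at 101, 137, 219 and 616 CPM in WT-THC and ranged from 37.7 to 119 CPM in WT-Veh with a median of 52.1 CPM. A single WT-Veh library lay above the lowest WT-THC library. Its log2 fold change was 1.57 ± 0.62 (exact permutation p = 0.019, limma p = 0.0235, adjusted p = 0.744), and 0.85 without WT-THC replicate 9. Zfp157, a KRAB gene, was at 34.8, 41.0, 59.5 and 123 CPM in WT-THC and between 0.369 and 30.6 CPM in WT-Veh (median 15.1 CPM). It did not overlap (log2 fold change 2.61 ± 1.06, exact permutation p = 0.00952, limma p = 0.0261, adjusted p = 0.744), and 16p11dup-Veh (17.3 to 80.7 CPM) overlapped with both. Zfp120 was lower without overlap (16.4 ± 0.952 CPM, SD, n = 4, against 34.1 ± 13.2 CPM, SD, n = 6) with a log2 fold change of -0.94 ± 1.04 (limma adjusted p = 0.744). Zfp91, a ubiquitin ligase of the noncanonical NF-kappaB pathway, was at 7.75, 44.4, 86.6 and 95.2 CPM in WT-THC and from 68.9 to 213 CPM in WT-Veh with a median of 104 CPM. Its log2 fold change was -1.39 ± 0.58 (exact permutation p = 0.0857, limma p = 0.0298, adjusted p = 0.744) and -0.49 without WT-THC replicate 7. Zfp236 was at 45.0 ± 18.4 CPM (SD, n = 4) against 108.1 ± 73.6 CPM (SD, n = 6). Its log2 fold change was -1.15 ± 0.52 (exact permutation p = 0.0571, limma p = 0.0427, adjusted p = 0.744), and -0.77 without the same library.

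The duplication with vehicle was set against WT-Veh in the same way. Zfp362 stood at 22.2, 48.4, 114 and 294 CPM in 16p11dup-Veh and between 0.129 and 34.8 CPM in WT-Veh (median 5.04 CPM), with a log2 fold change of 4.10 ± 1.42 (exact permutation p = 0.019, limma p = 0.0115, adjusted p = 0.982). A single WT-Veh library lay above the lowest 16p11dup-Veh library, and 16p11dup-THC (1.38 to 90.3 CPM) overlapped with both. DESeq2 gave adjusted p = 0.0854. Zfp317, a KRAB gene, did not overlap (51.8 ± 15.9 CPM, SD, n = 4, against 17.1 ± 14 CPM, SD, n = 6) with a log2 fold change of 2.44 ± 1.21 (limma adjusted p = 0.982). Zfp606 had a lower mean, at 25.2 ± 44.8 CPM (SD, n = 4) against 61.1 ± 78.0 CPM (SD, n = 6). Its log2 fold change was -3.40 ± 1.40 (exact permutation p = 0.105, limma p = 0.0283, adjusted p = 0.982), -1.45 without 16p11dup-Veh replicate 16, -0.57 with edgeR and -0.53 with DESeq2. Zfp326, which couples transcription to splicing, was at 60.6 ± 35.7 CPM (SD, n = 4) against 22.8 ± 18.7 CPM (SD, n = 6), with a log2 fold change of 1.47 ± 0.67 (exact permutation p = 0.0857, limma p = 0.0447, adjusted p = 0.982). Zfp553, which was detected in 14 libraries, overlapped the end of the duplicated segment, and within 1 Mb wholly beyond it lay 9 Zfp genes, of which Zfp629 and Zfp646 were detected in every library. Their log2 fold changes in 16p11dup-Veh were -0.61 ± 1.44 and 1.65 ± 1.24.

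For the interaction, Zfp704 had the smallest p-value. It was at 45.9, 57.7, 104 and 119 CPM in 16p11dup-THC and at 2.54, 12.4, 28.6 and 69.7 CPM in 16p11dup-Veh. In wild type mice it stood at 0.133, 24.1, 35.8 and 96.0 CPM with THC and between 12.2 and 146 CPM with vehicle (median 60.1 CPM). The mean was higher with THC in 16p11dup mice and lower with THC in wild type mice, and each pair of groups overlapped. The interaction was 5.11 ± 1.86 on the log2 scale (limma adjusted p = 0.973) and 2.76 without WT-THC replicate 9, where a single read was counted. The interaction was -5.37 ± 2.12 for Zfp874b, 3.86 ± 1.62 for Zfp719, -2.70 ± 1.18 for Zfp597 and -0.98 ± 0.45 for Zfp292, each with a limma adjusted p of 0.973.

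The counts by role describe the choice of genes, and 35.5% of all Zfp genes were chosen. By role, 7 of 10 genes listed for RNA binding, splicing and mRNA decay were detected in every library. They include Zfp871, which held 15 C2H2 fingers and whose listed role was not tested. Of 4 genes listed for ribosomes and translation quality control, 2 were detected in every library. Of the latter, Zfp598, the ubiquitin ligase that marks collided ribosomes, was at 59.6 ± 42.9 CPM in WT-Veh (SD, n = 6) and ranged over all libraries from 3.08 to 307 CPM. Sequence-specific activators were represented by 6 of 10 genes, among them Zfp148 (60.3 to 336 CPM), Zfp384 (25.1 to 1187 CPM) and Zfp281 (0.459 to 152 CPM), a regulator of embryonic stem cells. Of corepressor and histone methylation partners 10 of 14 were detected. Of these, Zfp592, Zfp532 and Zfp687 belong to 1 complex with the chromatin reader Zmynd8. Zfp532 was at 35.3 to 293 CPM and Zfp592 at 36.9 to 411 CPM, while Zfp687 was at 0.133 CPM in WT-THC replicate 9 and reached 458 CPM in WT-Veh replicate 5. Of 10 listed KRAB repressors with a known target 3 were detected everywhere, namely Zfp445, Zfp809 and Zfp68. Zfp809 was at 0.0948 to 235 CPM in WT-Veh and at 0.109 to 86.1 CPM in 16p11dup-THC, so that both groups held a library with 1 read.

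The partners of these proteins were measured alongside. Of 20 listed KRAB corepressor and HUSH complex genes 19 were in the table and 15 were detected in every library, and none passed the false discovery rate of 0.10 in any comparison. Setdb1 had higher values in 16p11dup-THC (110 ± 63.9 CPM, SD, n = 4) than in WT-Veh (40.6 ± 25.1 CPM, SD, n = 6), with a log2 fold change of 1.80 ± 0.58 (limma adjusted p = 0.803). In that comparison 1 of the 19 genes had an unadjusted limma p under 0.05 (background 7.08%). Setdb1 was at 75.5 ± 41.3 CPM in WT-THC and at 56.2 ± 39.7 CPM in 16p11dup-Veh (SD, n = 4 each). Trim28, the corepressor that KRAB boxes bind, was at 33.2 ± 11.9 CPM in 16p11dup-THC and at 145 ± 86.7 CPM in WT-THC (SD, n = 4 each), with a log2 fold change of -2.23 ± 0.80 (limma adjusted p = 0.965). Mphosph8 of the HUSH complex was lower in the same comparison (log2 fold change -4.05 ± 1.43, limma adjusted p = 0.965). Of 21 CCCH decay and deadenylation genes 20 were in the table, 18 were detected in every library and none passed. At unadjusted limma p under 0.05, Zc3h12a was lower than in WT-Veh in 16p11dup-Veh (log2 fold change -5.15 ± 1.95) and 16p11dup-THC (-4.52 ± 1.92). It was at the floor in at least 1 library of every group. Cnot2 was higher in 16p11dup-Veh than in WT-Veh (1.33 ± 0.61) and Cnot8 in 16p11dup-THC than in WT-THC (1.42 ± 0.64). Zfp36 itself, left out by the rule, had a log2 fold change of 0.95 ± 0.42 in WT-THC (limma adjusted p = 0.744) and 0.97 ± 0.42 in 16p11dup-Veh (limma adjusted p = 0.982), both against WT-Veh. In 16p11dup-THC it was at 236 ± 157 CPM (SD, n = 4) and in WT-Veh at 209 ± 95.7 CPM (SD, n = 6), and the interaction was -1.84 ± 0.65 (limma adjusted p = 0.973). Of 41 Zbtb genes, the other large family of C2H2 proteins, 20 were detected in every library and none passed.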

How the data were processed

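RNA of sorted microglia was sequenced in 18 libraries; 4 groups came from the labels. Libraries used a low-input kit; the authors removed outlying libraries before deposit. Per the labels and methods, reads went through RSEM 1.3.0 (STAR, GRCm38, no strand), and the authors deposited log2 CPM, a fraction of mapped reads per library, a table of counts per library, ribosomal read values and surrogate variable scores. The deposited log2 values follow the voom formula with 0.5 counts added, so counts were recovered from them (94.3% of non-zero counts were whole within 0.005) and CPM are 2 to the power of the log2 value less the added 0.5. Detection means a value above the library's minimum. Differences were tested with limma 3.58.1 (voom weights, all 18 libraries, percentage of mapped reads as covariate, Benjamini-Hochberg over 22428 genes, threshold 0.10). Fold changes are on the log2(CPM + offset) scale. The offset shrinks changes near the floor, while 1 library with few reads can make a fold change large. For Zfp639 in 16p11dup-THC against WT-Veh it was -4.12, and -2.79 without 16p11dup-THC replicate 21. DESeq2 1.42.0 and edgeR 4.0.16 used recovered counts rounded to whole numbers. The tests were checked on 1 simulated data set with known changes, in which the share of false calls exceeded the threshold and was highest for DESeq2. Every simulated gene had the same spread setting, and apart from the known changes libraries differed in depth only. The share of false calls in the real data is therefore not known from it. Exact permutation tests compared mean log2 CPM. Fingers (C2H2 and CCCH patterns), KRAB boxes (at least 11 of 14 positions) and shared 100-base windows were found in coding sequences of GENCODE M21, of which 126 genes matched by symbol and 1 by synonym; a RefSeq protein table was planned and not used here. The members, lists and tests were chosen with earlier results of these data known. Genes are named by fixed rules: highest and lowest level, smallest unadjusted p (up to 5 per comparison), groups without overlap, largest and smallest SD, lowest count, most and fewest fingers, and listed roles; genes named for a DESeq2 call or for their position were chosen after their values were seen. Intervals between libraries cover the spread of libraries only.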

Additional observations from a re-analysis of the deposited data

Results flagged for a closer look

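In 26 zinc finger genes shown by library, 20 values, each of 1 gene in 1 library, stood far from the others of their group. Dixon's test was run on CPM in 104 sets of a gene and a group. Chance flags about 1 in 20 where values spread normally, and CPM are skewed, so the share that chance would flag here is not known. In WT-Veh these were Zfp36l1 in replicate 4 (924 CPM), Zfp324 in replicate 1 (22.8 CPM), Zfp874b in replicate 2 (81.9 CPM), Zfp445 in replicate 5 (518 CPM), Zfp809 in replicate 2 (235 CPM) and Zfp772 in replicate 1 (180.4 CPM). In WT-THC they were Zfp710 (1991 CPM) and Zfp207 (612 CPM) in replicate 9 and Zfp874b in replicate 8 (105 CPM). In 16p11dup-Veh, replicate 14 stood apart for Zfp710 (523 CPM), Zfp639 (219 CPM), Zfp800 (188 CPM), Zfp874b (252 CPM) and Zfp445 (39.4 CPM). In the same group replicate 12 stood apart for Zfp324 (45.2 CPM) and Zfp781 (145 CPM), and replicate 16 for Zfp664 (77.0 CPM) and Zfp106 (414 CPM). In 16p11dup-THC they were Zfp324 in replicate 18 (298 CPM) and Zfp362 in replicate 21 (90.3 CPM). The cause was not tested.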

How the results depend on the processing

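Of 1068 alternative values for the 37 gene comparisons named, 1052 kept their direction and side of the threshold, 16 passed the false discovery rate of 0.10 where the reported test did not, and 0 reversed. These comparisons were picked from the same data by small p or lack of overlap, and most alternatives leave out only 1 library. A kept direction was therefore likely in advance, and a kept side means that the gene stayed uncalled. The tally describes the fits and does not test the differences. In the order WT-THC, 16p11dup-Veh and 16p11dup-THC against WT-Veh, 16p11dup-THC against WT-THC and against 16p11dup-Veh, and the interaction, DESeq2 called 2, 1, 9, 7, 5 and 3 of the genes where limma called 0 (background 1.9%, 0.942%, 3.57%, 3.08%, 2.19% and 1.9%), and edgeR called 1 for 16p11dup-THC against WT-Veh (background 0.181%). Counts at unadjusted p under 0.05 moved by over 1.5 times as follows, each beside the share of the 5520 background genes in the same fit. For WT-THC they were 10 with DESeq2 (7.88%) and 8 with only the groups compared (5.11%). For 16p11dup-Veh they were 1 with edgeR (4.49%), 4 with limma-trend (3.62%), 2 with only genes detected in every library (2.72%), 4 with surrogate variables (2.88%) and 4 without the 3 libraries with the fewest genes (3.3%). For 16p11dup-THC against WT-Veh DESeq2 gave 21 (10.3%). Against WT-THC they were 11 with DESeq2 (9.57%), 12 with surrogate variables (7.81%), 10 with only the groups compared (8.3%) and 3 without the libraries with the fewest genes (7.12%). Against 16p11dup-Veh they were 7 with edgeR (5.34%), 6 with limma-trend (4.78%), 6 with only detected genes (5.0%), 7 without the 3 libraries with the most genes (5.8%) and 5 without those with the fewest (6.78%). The median log2 fold change against WT-THC became 0.31 with edgeR, 0.28 with DESeq2 and 0.14 with surrogate variables, and that of the interaction 0.21 with edgeR and 0.18 with DESeq2. The cause was not tested. Requiring 10 counts in every library left 59 genes, and allowing 1 library at the floor gave 168. Leaving out each replicate in turn gave 1 to 7, 3 to 11, 9 to 16, 3 to 11, 7 to 13 and 4 to 7 genes at unadjusted p under 0.05, and medians of 0.03 to 0.22, 0.00 to 0.20, 0.11 to 0.41, -0.19 to 0.13, 0.08 to 0.40 and -0.27 to 0.09. No paired analysis was possible because the groups share no replicate numbers. Leaving out the libraries with the most or fewest genes was chosen after seeing the data. Genes with few reads in their lowest library limit what can be detected at this depth.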
